A study of Mus musculus with 32 samples.

Results

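The comparison described here set Acod1 knockout (KO) against wild-type (WT) bone marrow-derived macrophages that had all been treated with the synthetic glucocorticoid dexamethasone at 100 nM for 24 h. It rested on 8 of the 32 RNA-seq libraries of the series, taken by their labels: 4 labelled Acod1 KO and 4 labelled Acod1 WT, both with the treatment label Glucocorticoids. The series crossed these genotypes with no treatment (control), dexamethasone, lipopolysaccharide (LPS, 100 ng with no volume given) and dexamethasone with LPS, 4 libraries to a group. Its stated purpose was the anti-inflammatory effect of glucocorticoids on LPS-treated macrophages, with Irg1 (Acod1) knockout cells added under the same conditions. Neither group described here received LPS. The macrophages were grown from femur and tibia marrow of mice 8 to 12 weeks old on a C57BL/6J background, with L929 supernatant as the source of M-CSF. The labels name C57BL/6J mice from Janvier Labs and Irg1+/+ and Irg1-/- mice from Jackson as marrow donors and do not say which of the first pair gave the WT libraries. They do not say which part of Acod1 was removed, nor whether libraries 1 to 4 of a group are from separate animals. A p-value here therefore reflects library-to-library spread, part of which may be technical.

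Acod1, also called Irg1, encodes the mitochondrial enzyme that makes itaconate from cis-aconitate, an intermediate of the TCA cycle. It is known as a gene that macrophages induce strongly with LPS and express little at rest, and itaconate inhibits succinate dehydrogenase and can modify cysteines of proteins such as KEAP1. Dexamethasone binds the glucocorticoid receptor, which raises targets such as Fkbp5 and Tsc22d3 and lowers inflammatory and interferon-driven genes.

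The 8 libraries held 17739050 to 22788375 counts of assigned read pairs. Mitochondrially encoded genes took 0.510 to 0.568% of counts in WT and 0.508 to 0.576% in KO, and ribosomal protein genes 3.23 to 3.27% and 3.33 to 3.40%. All 4 WT libraries and KO 1 to 3 came from sequencing lane 3 and KO 4 from lane 2, per the column headers. Macrophage identity genes such as Csf1r, Adgre1 and Cd68 were abundant in each library, with a sum of 35258 to 36396 CPM (reads of a gene for each 1000000 counted, after library scaling) over 18 genes in WT and 32606 to 33608 CPM in KO. Lyz2 held most of that sum, at a mean of 20765 CPM in WT and 18693 CPM in KO. Of the 18 genes, 15 were lower in KO and 3 higher, Cd68 among the latter. In bulk samples fewer cells of a type and less RNA per cell cannot be told apart. Levels below are CPM on TMM-scaled library sizes, means are ± SD over 4 libraries, and differences are log2 fold changes of KO over WT ± SE from edgeR, with n = 4 libraries a group. A gene is called where its p, adjusted by Benjamini-Hochberg over the 14427 genes tested, was under 0.05. The words rose and fell mean higher or lower in KO than in WT, and WT 1 to KO 4 name libraries by label and replicate number.

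Few genes passed the test between the genotypes with dexamethasone. Of the 14427 genes, 130 were called (0.901%), 78 higher in KO (0.541%) and 52 lower (0.36%), and 1495 had an unadjusted p under 0.05. The differences were mostly small: 12 called genes changed by 2-fold or more and 23 by 1.5-fold or more. The median size of a called change was 0.29 on the log2 scale, or 22.6%, and the smallest was 0.13. The libraries of KO and WT did not overlap for 113 of the 130, 65 higher and 48 lower, against 7.67% of all tested genes (3.94% higher and 3.73% lower). Every one of the 130 kept its direction when any of the 8 libraries was left out, and 49 were called in all 8 such fits. The number called fell to 80 without WT 1, 84 without WT 2, 82 without WT 3, 69 without KO 3 and 75 without KO 4. On lane 3 libraries alone it was 82, of which 78 were among the 130.

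**Figure D1:**
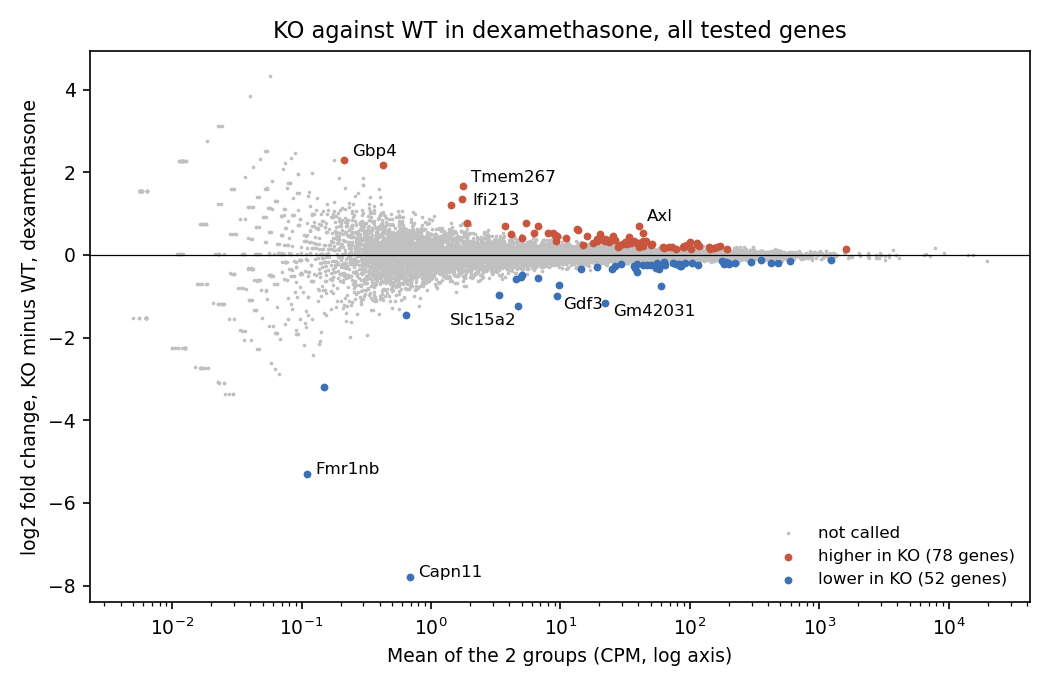
Each point is 1 of the 14427 tested genes, by its mean level over the WT and KO dexamethasone groups (CPM, log axis) and its log2 fold change of KO over WT. The 78 genes called higher and 52 called lower are coloured, and most lie close to 0, with Capn11 at the bottom and Gbp4 at the top.

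The targeted gene was barely transcribed in either group. Acod1 (ENSMUSG00000022126, chromosome 14 from 103284413 to 103294009, plus strand, on the coordinates of the deposited table) was at 1.01, 1.24, 0.601 and 0.625 CPM in WT 1 to 4 and 0.359, 0.607, 0.634 and 0.362 CPM in KO 1 to 4. WT 1 and WT 2 were the highest, while WT 3 and WT 4 lay just below KO 3, so the groups overlapped. The difference was -0.83 ± 0.28 (edgeR adjusted p = 0.181) and was not called. Since reads of all exons are pooled in a gene's count, these values do not check the KO label. Of the 27 tested genes within 5 Mb of Acod1 on chromosome 14, 0 were called, against 0.901% of all genes. Their median log2 fold change was -0.0095 and their lowest edgeR adjusted p was 0.229. Nr3c1 encodes the glucocorticoid receptor and stood at 110.3 ± 1.78 CPM in WT against 108.1 ± 3.13 CPM in KO (-0.03 ± 0.046, edgeR adjusted p = 0.908). Fkbp5, a co-chaperone of that receptor and its classical target, was at 878 ± 12.8 CPM in WT against 836 ± 24.6 CPM in KO (-0.07 ± 0.048, edgeR adjusted p = 0.676).

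Receptors and surface molecules held several of the clearest differences. Axl, a receptor tyrosine kinase that binds Gas6 and takes part in the clearance of apoptotic cells, was at 27.3, 29.7, 32 and 35.1 CPM in WT 1 to 4 and 50.7, 50.1, 52.8 and 48.3 CPM in KO 1 to 4. Every KO library was above every WT library, and the rise of 0.70 ± 0.058 had an edgeR adjusted p of 4.7e-12. Fcrls, an Fc receptor-like gene, was at 16.8, 15.5, 17.7 and 16.5 CPM in WT 1 to 4 and 23.9, 23.7, 23.7 and 22.6 CPM in KO 1 to 4. Its KO libraries lay close together and above all of WT (0.50 ± 0.077, edgeR adjusted p = 4.9e-05). Il7r, the interleukin-7 receptor, rose as well, from 102 ± 5.32 CPM in WT to 124 ± 7.48 CPM in KO (0.28 ± 0.048, edgeR adjusted p = 0.00045). Colec12, a collectin-type scavenger receptor, was at 44.6, 44.5, 44.7 and 45.6 CPM in WT 1 to 4 and 33, 36, 32 and 33.1 CPM in KO 1 to 4. The WT libraries differed by about 1 CPM, all above KO, and the difference was -0.42 ± 0.065 (edgeR adjusted p = 7.8e-05). Itgal, the alpha chain of the integrin LFA-1, fell from 41.6 ± 2.6 CPM in WT to 33.2 ± 1.7 CPM in KO (-0.33 ± 0.064, edgeR adjusted p = 0.0023), again without overlap between the groups. These 5 calls were kept when any 1 library was left out and on lane 3 libraries alone.

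A growth factor, a transporter and a protease had the 3 largest called falls of protein-coding genes above 2 CPM. Gdf3, a growth factor of the TGF-beta superfamily, was at 13.7, 12, 12.4 and 12.5 CPM in WT 1 to 4 and 6.76, 6.3, 6.02 and 6.15 CPM in KO 1 to 4. Each KO library was below 7 CPM and each WT library above 11 CPM, a difference of -1.001 ± 0.11 (edgeR adjusted p = 4.2e-08). Slc15a2, which encodes the proton-coupled peptide transporter PEPT2, was at 7.21, 6.52, 7.31 and 5.22 CPM in WT 1 to 4 and 2.66, 3.03, 2.85 and 2.49 CPM in KO 1 to 4. All KO libraries were below the lowest WT library, WT 4, and the difference was -1.24 ± 0.15 (edgeR adjusted p = 5.1e-07). Adam19, a membrane metalloprotease, was at 11.3, 12.6, 11.7 and 12.7 CPM in WT 1 to 4 and 7.27, 7.94, 6.52 and 7.42 CPM in KO 1 to 4. The groups did not overlap (-0.73 ± 0.14, edgeR adjusted p = 0.0023), and 10.1% of its exon bases are shared with other genes of the annotation, whose reads unstranded counting cannot separate. F10, coagulation factor X, fell from 16.1 ± 0.263 CPM in WT to 12.8 ± 0.832 CPM in KO (-0.34 ± 0.066, edgeR adjusted p = 0.0023). Zfyve9, which encodes the SMAD anchor SARA of the TGF-beta pathway, fell from 7.94 ± 0.474 CPM in WT to 5.38 ± 0.485 CPM in KO (-0.56 ± 0.11, edgeR adjusted p = 0.0040), with 10.9% of its exon bases shared. These 5 calls too were kept when any 1 library was left out and on lane 3 libraries alone.

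Capn11, a gene of the calpain protease family, was read in every WT library and in no KO library. It had 117 counts over the WT libraries, at 1.61, 0.919, 1.7 and 1.249 CPM in WT 1 to 4, and 0 counts in KO 1 to 4. Set against a floor of 3 counts over the KO group, it was at least 38.1-fold lower (edgeR adjusted p = 4.5e-08). Fmr1nb, a gene best known from testis, had 21 counts over WT and 0 over KO, at least 6.83-fold lower (edgeR adjusted p = 0.0383). Its reads were uneven, with 0 CPM in WT 1 and 0.560 CPM in WT 2, and of the 8 fits that left out 1 library the call was kept only without WT 1 or WT 3 (edgeR adjusted p up to 0.285, without WT 2). Sox5, a transcription factor gene, had 23 counts over WT and 2 over KO, 11.2-fold lower with a 95% counting interval of 2.77 to 98.2. Of those 8 fits the Sox5 call was kept only without WT 2 (edgeR adjusted p up to 0.140, without WT 1). Floors and intervals here cover counting error only.

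A pair of long noncoding RNA genes on chromosome 8 fell with very small p-values. Gm42031 (ENSMUSG00000110386, from 85852501 to 85858918, minus strand) was at 30.3, 33.4, 30.4 and 29 CPM in WT 1 to 4 and 13.9, 13.8, 11.6 and 15.5 CPM in KO 1 to 4. The groups were far apart, with KO 4 the highest KO library, and the difference was -1.17 ± 0.079 (edgeR adjusted p = 3.6e-15). Gm42047 (ENSMUSG00000110631, from 122559986 to 122567917, plus strand) was at 70.9, 76.3, 75.8 and 76.9 CPM in WT 1 to 4 and 45.8, 41, 40.8 and 50.8 CPM in KO 1 to 4. The groups were again apart, with KO 4 again the highest of KO, and the difference was -0.75 ± 0.069 (edgeR adjusted p = 1.1e-10). Neither shares exon bases with another gene of the annotation.

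A phosphatase and a fibrinogen-like protein were also among the rises. Dusp4, a phosphatase that inactivates MAP kinases, was at 20.7, 19.2, 18.6 and 18.5 CPM in WT 1 to 4 and 24, 25.7, 25 and 25.5 CPM in KO 1 to 4. The groups did not overlap, and the rise was 0.38 ± 0.053 (edgeR adjusted p = 6.4e-06). Fgl2, a fibrinogen-like protein with prothrombinase activity, was at 10.5, 10.03, 10.5 and 11.2 CPM in WT 1 to 4 and 14.9, 14.9, 16.4 and 18.4 CPM in KO 1 to 4. KO 4, from lane 2, was the highest, and on lane 3 libraries alone the rise was 0.55 (edgeR adjusted p = 0.0054) against 0.62 ± 0.098 (edgeR adjusted p = 0.00010) with all of them.

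Other rises came from a transporter, a membrane protein gene and an adaptor. Slc5a3, the sodium and myo-inositol cotransporter, was at 37, 35.1, 34.2 and 35.4 CPM in WT 1 to 4 and 57.4, 41.4, 57.5 and 50.1 CPM in KO 1 to 4. KO 2 was closer to WT than to the other KO libraries, yet above all of WT (0.54 ± 0.079, edgeR adjusted p = 2.1e-05). Its neighbour Mrps6, a mitochondrial ribosomal protein gene with 19.9% of its exon bases shared with Slc5a3 and a further gene, rose by 0.41 ± 0.084 (edgeR adjusted p = 0.0041), and reads from the shared bases cannot be assigned to either. Tmem267, a transmembrane protein gene, was at 0.756, 1.04, 0.651 and 0.892 CPM in WT 1 to 4 and 2.31, 2.99, 2.76 and 2.67 CPM in KO 1 to 4. It was the largest rise among genes above 2 CPM, 1.66 ± 0.24 (edgeR adjusted p = 1.6e-05), with no overlap and 6.33% of its exon bases shared. Shc2, a signalling adaptor, was at 0.756, 0.799, 0.951 and 0.937 CPM in WT 1 to 4 and 2.25, 1.17, 2.26 and 2.35 CPM in KO 1 to 4. KO 2 stood apart from the other KO libraries, and the rise of 1.22 ± 0.27 (edgeR adjusted p = 0.0087) was not called without KO 3 (edgeR adjusted p = 0.0506) or without KO 4 (0.0549).

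**Figure D2:**
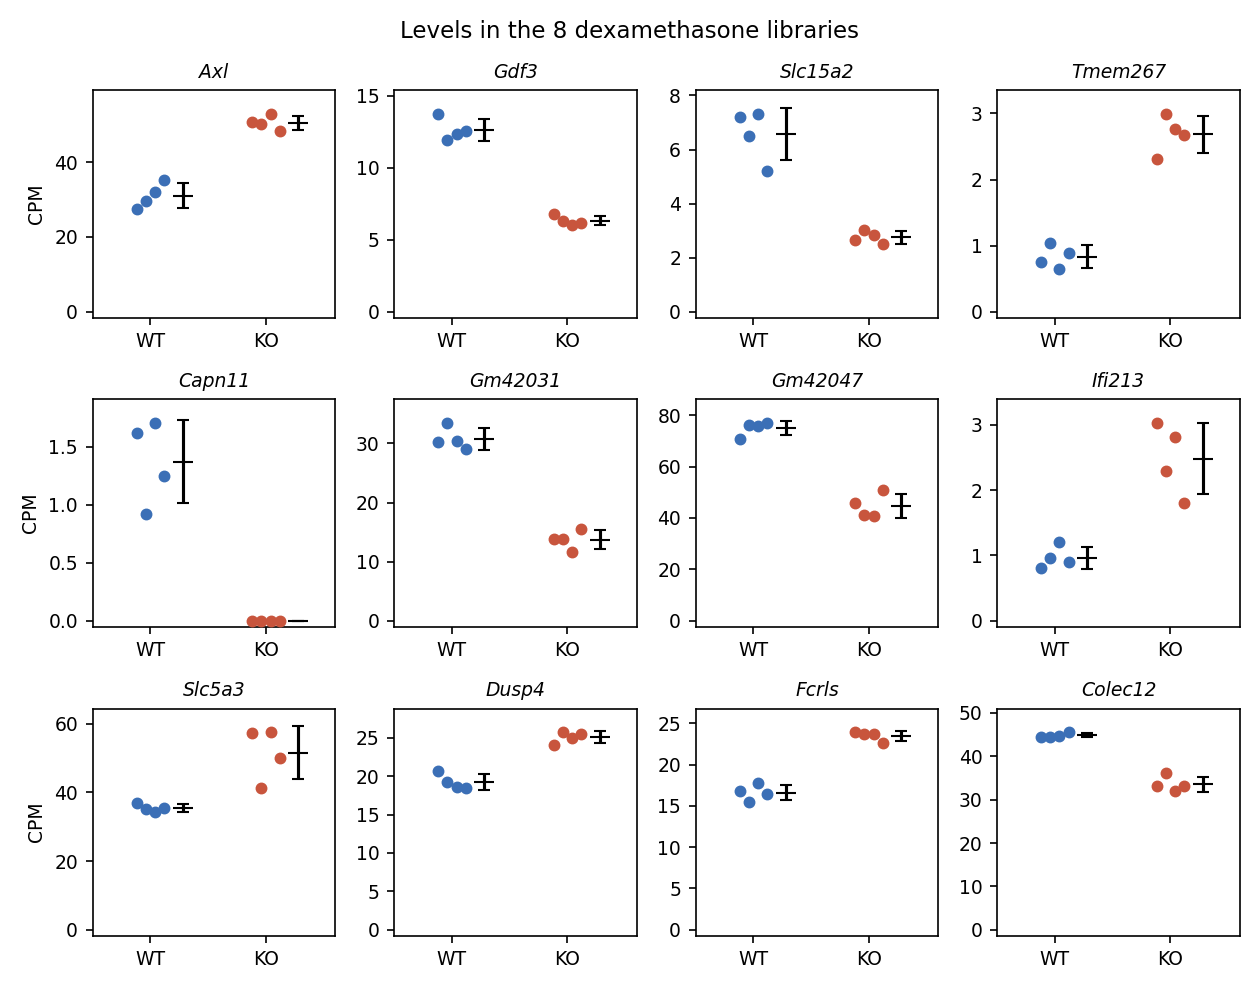
Each panel gives 1 gene in the 8 dexamethasone libraries (CPM, each axis from about 0), with points for libraries and a bar with whiskers for the mean ± SD of 4. Of these 12 genes none has an overlap between the WT and KO points, and Capn11 is at 0 in all KO libraries.

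Interferon-stimulated genes were the list with the most called members. Type I interferon activates transcription factors that bind interferon-stimulated response elements in the promoters of antiviral genes. Of 44 tested members, 11 rose and 0 fell, where 0.541% of all genes rose. The median over the 44 was 0.16 against 0.0029 over all genes, 39 were above 0, and 17 had KO libraries all above WT, against 3.94% of all genes. The called members were Oasl1, Zbp1, Usp18, Ifit2, Irf7, Ifi27l2a, Oasl2, Rtp4, Oas3, Dhx58 and Oas1a. The summed level of the list was 1864 to 2060 CPM in the WT libraries and 2120 to 2203 CPM in the KO libraries, without overlap. Its called members numbered 6 without WT 4 or without KO 3, 7 without WT 3 and 8 on lane 3 libraries alone.

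Among its regulators, Usp18, a protease that removes ISG15 and restrains the interferon receptor, was at 15.5, 13.5, 13.7 and 11 CPM in WT 1 to 4 and 17.3, 18.4, 19.6 and 18.1 CPM in KO 1 to 4. WT 4 was the lowest library and all of KO lay above WT 1, the highest of WT (0.46 ± 0.089, edgeR adjusted p = 0.0020). Irf7, a transcription factor that amplifies interferon production, was at 35.8, 32.5, 34.2 and 29.1 CPM in WT 1 to 4 and 42.3, 40.6, 40.7 and 42.8 CPM in KO 1 to 4. The groups did not overlap, and the rise was 0.34 ± 0.062 (edgeR adjusted p = 0.00079). Zbp1, a sensor of Z-form nucleic acids, was at 8.57, 8.11, 7.81 and 7.36 CPM in WT 1 to 4 and 11.9, 11.9, 9.42 and 10.7 CPM in KO 1 to 4. It rose by 0.46 ± 0.082 (edgeR adjusted p = 0.00058), also without overlap.

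Effector genes were called over a range of sizes. Oasl1, an oligoadenylate synthetase-like gene, had the largest called rise of the list, 0.50 ± 0.12, from 3.43 ± 0.388 CPM in WT to 4.87 ± 0.514 CPM in KO (edgeR adjusted p = 0.0314), and Ifit2 rose by 0.38 ± 0.094 (edgeR adjusted p = 0.0314). Of the 8 fits without 1 library, Oasl1 was called only without WT 2 or KO 4 and Ifit2 only without WT 1, KO 1 or KO 3, with edgeR adjusted p up to 0.140 (Oasl1 without KO 2) and 0.159 (Ifit2 without KO 4). Oasl2, of the oligoadenylate synthetase family, was at 86.1, 86.4, 94.1 and 83.3 CPM in WT 1 to 4 and 102, 103, 103 and 104 CPM in KO 1 to 4. The KO libraries were within 2 CPM of each other and above WT (0.24 ± 0.039, edgeR adjusted p = 0.00023). Oas3, which makes the oligoadenylates that activate RNase L, rose from 91.3 ± 7.47 CPM in WT to 106 ± 3.87 CPM in KO (0.22 ± 0.043, edgeR adjusted p = 0.0020). Oas1a rose by 0.18 ± 0.046 (edgeR adjusted p = 0.0457), a call that of the 8 fits without 1 library was kept only without WT 1 or KO 2 (edgeR adjusted p up to 0.181, without KO 3). Oas and Oasl genes are close paralogs, and the file header names no option for reads that match several of them, so their separate values are uncertain. Of the 33 members not called, Iigp1, Ifi44 and Ifit3b, all at low levels, had estimates above that of any called member, 0.72 ± 0.48, 0.63 ± 0.20 and 0.62 ± 0.21 (edgeR adjusted p = 0.669, 0.132 and 0.195). Among the other uncalled members Isg15 was at 6.38 CPM in WT against 6.88 CPM in KO, Ifitm3 at 356 and 373, Mx2 at 3.94 and 3.91 and Cxcl10 at 0.571 and 0.373. Of 18 interferon pathway components, such as the receptor chains and the kinases, 0 were called, against 0.901% of all genes. Their median was -0.03.

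Genes known as interferon-inducible outside that list were also among the rises, chosen here after their values were seen. Ifi213, of the PYHIN family of nucleic acid sensors, was at 0.806, 0.959, 1.2 and 0.892 CPM in WT 1 to 4 and 3.02, 2.29, 2.81 and 1.81 CPM in KO 1 to 4. KO 4 was the lowest KO library and still above all of WT (1.35 ± 0.20, edgeR adjusted p = 3.2e-05), and related Ifi200 genes could share its reads. Gbp4, a gene of the guanylate-binding protein family, had 6 counts over WT and 31 over KO, a rise of 2.31 ± 0.60 (edgeR adjusted p = 0.0413) that of the 8 fits without 1 library was kept only without WT 4 or KO 1 (edgeR adjusted p up to 0.268, without KO 4). B2m, the light chain of MHC class I, rose from 1526 ± 45.7 CPM in WT to 1697 ± 53.5 CPM in KO (0.15 ± 0.034, edgeR adjusted p = 0.0087), and was not called without WT 2 (edgeR adjusted p = 0.0538) or KO 3 (0.0618). Cd74, the invariant chain of MHC class II, was the called member among 14 class II and co-stimulation genes, where 0.901% of all genes were called. It rose from 19 ± 0.765 CPM in WT to 24.2 ± 2.31 CPM in KO (0.35 ± 0.080, edgeR adjusted p = 0.0143), and was not called without WT 1 (0.0652), KO 1 (0.0738) or KO 4 (0.0590).

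**Figure D3:**
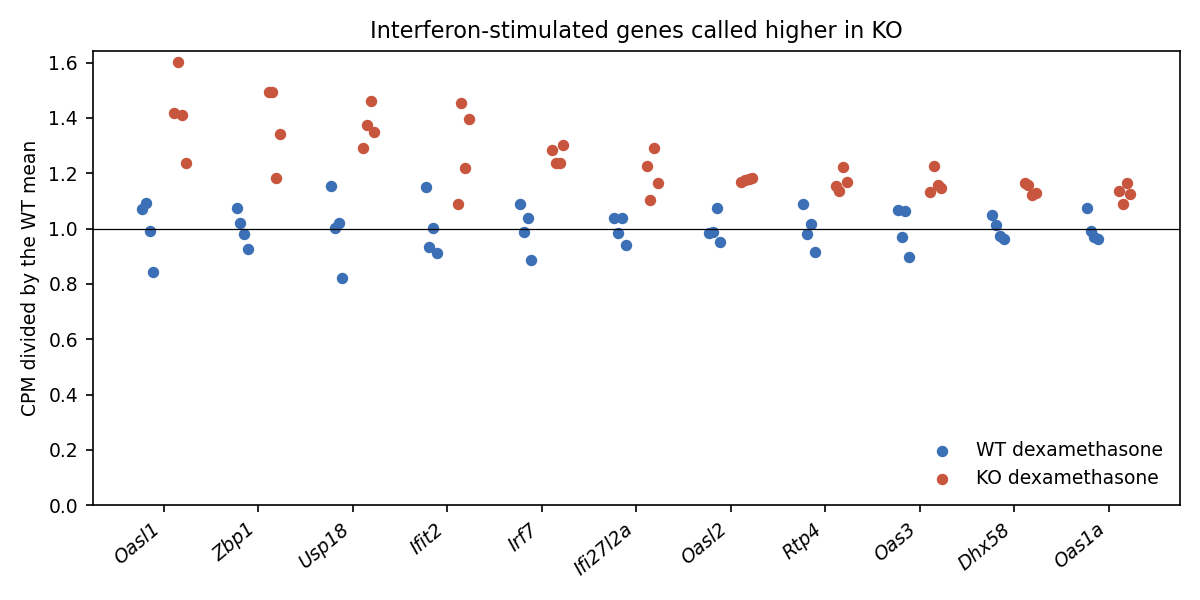
CPM of the 11 called interferon-stimulated genes in each of the 8 dexamethasone libraries, divided by the WT mean of the gene (linear axis from 0, line at 1). The KO points lie above the WT points for 10 of the 11 genes, and for Ifit2 the groups overlap, with KO 1 below WT 1.

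The promoters of called genes were searched on both strands for a core of the interferon-stimulated response element, 2 copies of GAAA with any 2 bases between them, in the 300 bases from 250 before to 50 after the RefSeq start. The motif was in 1079 of 27025 promoters (3.99%). A promoter entry was found for 51 of the 78 genes that rose, of which 5 had it (9.8%), and for 39 of the 52 that fell, of which 1 had it (2.56%). Among the tested interferon-stimulated genes 32 of 44 had an entry and 21 had the motif (65.6%), 2 of 6 called members and 19 of 26 members that were not called. The rises with the motif were Oas1a, Oas3, Ifi213, B2m and Vegfa. The first 4 are shown because their rises are described above, each 5′ to 3′ on the gene's strand (RefSeq, GRCm38.p6), with motif letters in capitals. The motif starts 139 bases before the start site in B2m, 73 in Ifi213 and 75 in Oas3, and Oas1a has a pair of overlapping matches that start 20 and 14 bases before it. In order, the windows are chr5:120907476-120907775 on the minus strand, chr5:120777610-120777909 on the minus strand, chr1:173599223-173599522 on the minus strand and chr2:122147437-122147736 on the plus strand. A match is a description of letters and was not tested for binding.
Oas1a: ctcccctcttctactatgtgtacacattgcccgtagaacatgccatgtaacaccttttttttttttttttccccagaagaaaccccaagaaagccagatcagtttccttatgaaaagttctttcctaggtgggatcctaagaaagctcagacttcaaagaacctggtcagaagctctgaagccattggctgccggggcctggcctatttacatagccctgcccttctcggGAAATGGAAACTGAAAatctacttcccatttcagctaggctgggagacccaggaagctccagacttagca
Oas3: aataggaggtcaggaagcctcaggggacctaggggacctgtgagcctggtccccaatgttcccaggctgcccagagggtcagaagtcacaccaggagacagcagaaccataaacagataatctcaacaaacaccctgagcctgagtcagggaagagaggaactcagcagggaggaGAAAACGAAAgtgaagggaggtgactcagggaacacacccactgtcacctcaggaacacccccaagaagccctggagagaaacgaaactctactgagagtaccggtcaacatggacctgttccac
Ifi213: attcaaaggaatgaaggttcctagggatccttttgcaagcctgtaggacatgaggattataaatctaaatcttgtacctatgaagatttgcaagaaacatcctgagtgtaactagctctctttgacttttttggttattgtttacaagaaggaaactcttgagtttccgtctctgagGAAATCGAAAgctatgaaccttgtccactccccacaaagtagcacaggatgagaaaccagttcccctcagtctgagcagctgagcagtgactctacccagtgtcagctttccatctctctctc
B2m: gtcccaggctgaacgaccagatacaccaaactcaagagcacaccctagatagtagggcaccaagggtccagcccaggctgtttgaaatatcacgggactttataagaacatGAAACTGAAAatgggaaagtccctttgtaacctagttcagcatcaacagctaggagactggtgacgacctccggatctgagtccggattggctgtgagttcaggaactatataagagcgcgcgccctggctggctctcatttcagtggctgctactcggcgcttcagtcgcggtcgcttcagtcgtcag

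Cell cycle genes were the list with the next most rises. Of 38 tested members 5 rose and 0 fell, where 0.541% of all genes rose and 0.36% fell. Of the 38, 37 were above 0, and the median was 0.20. In control, without dexamethasone, 37 of the 38 were above 0 too, with a median of 0.10. There 0 of them were called, against 0.541% of all genes. Top2a, the topoisomerase of dividing cells, was at 97.4, 117, 97.2 and 111 CPM in WT 1 to 4 and 114, 130.4, 117 and 139 CPM in KO 1 to 4. WT 2 was above KO 1, so the groups overlapped, and the rise was 0.24 ± 0.055 (edgeR adjusted p = 0.0119). Pcna, the sliding clamp of replication, was at 82, 84, 82.8 and 84.9 CPM in WT 1 to 4 and 92.1, 93.9, 97.4 and 98.3 CPM in KO 1 to 4. Its groups did not overlap (0.19 ± 0.046, edgeR adjusted p = 0.0223), and 20.8% of its exon bases are shared with another gene. The other called members were the spindle gene Tpx2 (0.30 ± 0.071) and the replication helicase genes Mcm3 (0.21 ± 0.053) and Mcm6 (0.20 ± 0.050). The calls depended on single libraries: 0 members were called without WT 3, without KO 4 or on lane 3 libraries alone, and 8 without WT 4. The summed level was 1051 to 1265 CPM in WT and 1239 to 1459 CPM in KO, with KO 4 from lane 2 the highest of the 8. Library 4 was also the highest of its group in WT, at 1265 CPM, in WT control, at 2879 CPM, and in KO control, at 3021 CPM. Those libraries came from lane 3. Whether lane has a part in the KO 4 value was not tested.

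Most macrophage identity genes were at lower values in KO, though few passed the test. Of 18 identity genes 0 rose and 1 fell, against 0.541% and 0.36% of all genes. Of the 18, 15 were below 0, with a median of -0.03 against 0.0029 over all genes, and 6 had KO libraries all below WT, against 3.73% of all genes. Cebpa, a transcription factor of the myeloid lineage, was at 211, 194, 194 and 196 CPM in WT 1 to 4 and 166, 179.5, 173 and 163 CPM in KO 1 to 4. All KO libraries were below all WT libraries, and the difference was -0.22 ± 0.045 (edgeR adjusted p = 0.0038), a call kept without any 1 library. Lyz2, lysozyme, took most of the identity sum, with 20765 ± 333 CPM in WT against 18693 ± 421 CPM in KO, without overlap, and missed the threshold (-0.15 ± 0.042, edgeR adjusted p = 0.0669). Csf1r, the M-CSF receptor, was at 2455 CPM in WT against 2339.9 CPM in KO and was not called.

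Of 23 genes for efferocytosis, scavenging and alternative activation, 2 rose and 3 fell, against 0.541% and 0.36% of all genes. The rises were Axl, given above, and Cd5l, a secreted scavenger-type protein of macrophages, from 37.8 ± 1.39 CPM in WT to 45.9 ± 3.63 CPM in KO (0.28 ± 0.068, edgeR adjusted p = 0.0220). Chil3, a chitinase-like marker of alternative activation, was at 66.6, 62, 71.5 and 59.3 CPM in WT 1 to 4 and 54.3, 48.8, 55.5 and 46.3 CPM in KO 1 to 4. The groups did not overlap (-0.34 ± 0.072, edgeR adjusted p = 0.0065), and the call was lost without WT 3 (0.0752) or KO 4 (0.0730). C1qa, a chain of complement C1q, fell from 513 ± 12.1 CPM in WT to 448 ± 3.38 CPM in KO (-0.19 ± 0.047, edgeR adjusted p = 0.0235). Msr1, the class A scavenger receptor, fell from 312 ± 11.4 CPM in WT to 277 ± 11.6 CPM in KO (-0.17 ± 0.043, edgeR adjusted p = 0.0364). Of the 8 fits without 1 library, Cd5l was called without WT 3, WT 4 or KO 1, C1qa without WT 2, WT 4 or KO 2, and Msr1 without WT 3 or KO 4. In the others the edgeR adjusted p was at most 0.132 for Cd5l (without KO 3), 0.0951 for C1qa (without WT 1) and 0.174 for Msr1 (without KO 1). Mertk, the relative of Axl, was at 286 CPM in WT against 269.9 CPM in KO and was not called, and their ligand Gas6 was at 819 and 832 CPM.

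Few glucocorticoid receptor targets were called between the genotypes. Of 27 tested targets 1 rose and 0 fell, where 0.541% of all genes rose and 0.36% fell. Among them 18 were below 0, the median was -0.06, and 5 had KO libraries all below WT, against 3.73% of all genes. Their summed level, over 30 genes, was 5188 to 5266 CPM in WT and 4911 to 5094 CPM in KO, without overlap. Tsc22d3, which encodes GILZ, was at 464, 459, 493 and 476 CPM in WT 1 to 4 and 429, 408, 451 and 441 CPM in KO 1 to 4. The groups did not overlap, but the difference of -0.13 ± 0.055 had an edgeR adjusted p of 0.368. The target that rose was Thbs1, thrombospondin, from 17.2 ± 1.21 CPM in WT to 22.2 ± 1.65 CPM in KO (0.37 ± 0.095, edgeR adjusted p = 0.0400). Its mean in WT control was 43.8 CPM, above both groups here, and its call was kept only without WT 1 or KO 2 of the 8 fits without 1 library (edgeR adjusted p up to 0.179, without KO 3). Of 17 genes for the receptor, its chaperones and cofactors, Hsp90aa1 rose and 0 fell. Hsp90aa1, the inducible cytosolic HSP90 that holds the receptor ready for ligand, was at 127, 134, 128 and 131 CPM in WT 1 to 4 and 147, 145, 155 and 147 CPM in KO 1 to 4. All of KO was above all of WT (0.19 ± 0.037, edgeR adjusted p = 0.0020), a call kept without any 1 library.

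Genes around the reaction that Acod1 catalyses were not called. Of 20 tested genes linked to itaconate, which include Acod1, succinate dehydrogenase and the enzymes of itaconyl-CoA, 0 were called and the median was 0.01. Sdha, the catalytic subunit of succinate dehydrogenase, was at 224 CPM in WT against 228 CPM in KO. Of 31 TCA cycle genes, 22 NRF2 targets and 70 nuclear respiratory chain genes, 0 were called in each, with medians of -0.0040, 0.02 and -0.0055. Over all genes 0.901% were called, so lists of these sizes would often hold no call. Among 11 mitochondrially encoded genes 10 were above 0 and 0 were called. Of 20 glycolysis genes 0 rose and 1 fell, against 0.541% and 0.36% of all genes. The fall was that of the aldolase gene Aldoc, from 21 ± 2.41 CPM in WT to 17.1 ± 1.75 CPM in KO (-0.30 ± 0.074, edgeR adjusted p = 0.0325).

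Of 16 HIF1 targets outside glycolysis 1 rose and 1 fell, against 0.541% and 0.36% of all genes. Vegfa, the vascular endothelial growth factor, was at 29.1, 29.9, 29.98 and 23.6 CPM in WT 1 to 4 and 36.2, 36.7, 37 and 30.3 CPM in KO 1 to 4. WT 4 and KO 4 were each the lowest of their group, yet KO 4 was above WT 3, the highest WT library, and the rise was 0.32 ± 0.072 (edgeR adjusted p = 0.0131). Egln1, the prolyl hydroxylase PHD2 that marks HIF1 for decay, fell from 67 ± 4.09 CPM in WT to 59.3 ± 1.98 CPM in KO (-0.18 ± 0.046, edgeR adjusted p = 0.0413). The Vegfa call was lost without WT 4 (0.111), KO 2 (0.0556) or KO 3 (0.0772), and was kept in the other 5 fits. Aldoc was called only without WT 3, KO 3 or KO 4 and Egln1 only without WT 1, with edgeR adjusted p up to 0.182 (Aldoc without KO 1) and 0.229 (Egln1 without WT 3). Of 32 lysosome genes 2 rose, where 0.541% of all genes rose. They were Gla, by 0.13 ± 0.034, and Atp6v1h, by 0.14 ± 0.037, and neither was called on lane 3 libraries alone. Of 18 inflammatory cytokines and enzymes, 23 chemokines and 23 cholesterol synthesis genes, 0 were called in each, against 0.901% of all genes.

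**Figure D4:**
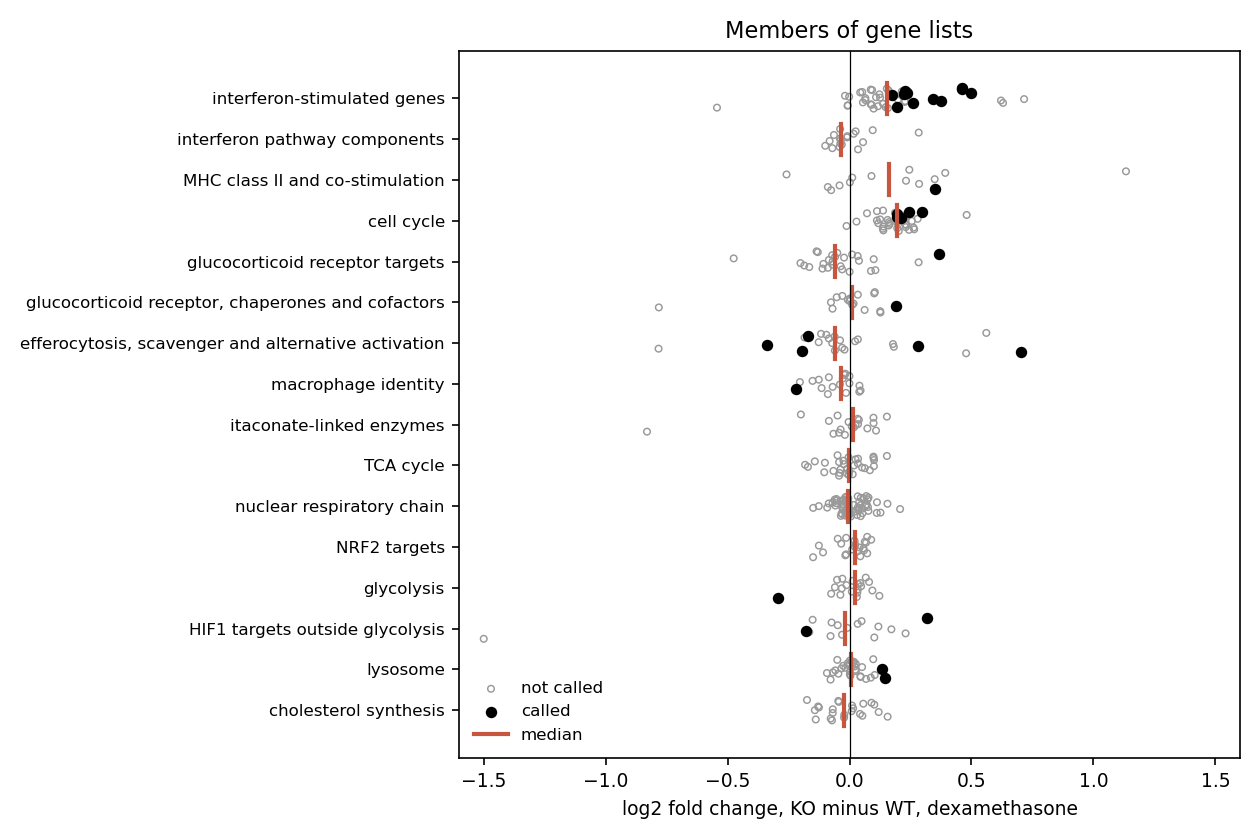
Log2 fold changes of KO over WT with dexamethasone for the tested members of 16 gene lists, with open points for members not called, filled points for called members and a bar for the median. The interferon-stimulated and cell cycle medians lie to the right of 0, at 0.16 and 0.20, and 1 member beyond 1.5 is drawn at the limit.

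The same genotypes were compared without dexamethasone in the control libraries, which share none with the comparison above. The labels do not say whether both sets of libraries came from the same animals. There 78 of 14427 genes were called (0.541%), 35 higher (0.243%) and 43 lower (0.298%). Of the 130 genes called with dexamethasone, 124 had the same sign in control, where 59.3% of all tested genes had the same sign in both. Both comparisons called 40 genes, which is 30.8% of those called with dexamethasone and 51.3% of those called in control. KO_control 1 came from merged lanes and the other 7 control libraries from lane 3.

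Several of the largest differences were also called without the drug. Axl was at 158 to 180 CPM in WT control and 234 to 244 CPM in KO control, far above its levels with dexamethasone, and the rise there was 0.50 ± 0.047 (edgeR adjusted p = 1.6e-10) against 0.70 ± 0.058 with it. Gdf3 fell by 0.80 ± 0.11 in control, Slc15a2 by 1.22 ± 0.16 and Gm42031 by 1.58 ± 0.068 (edgeR adjusted p = 5.6e-06, 1.6e-06 and 4.1e-23). Capn11 had 0 CPM in all KO control libraries and 0.401 to 1.39 CPM in WT control. Cebpa differed by -0.16 ± 0.049 in control and was not called there (edgeR adjusted p = 0.172). The 18 macrophage identity genes were mostly lower in KO control too, with a median of -0.07 and 2 above 0. Among them 1 was called lower, against 0.298% of all genes. Their sum was 32260 to 34647 CPM in WT control and 28484 to 31007 CPM in KO control.

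Interferon-stimulated genes stood at higher levels in control than with dexamethasone in both genotypes. Their sum in control was 5868 to 6824 CPM in WT and 6379 to 6684 CPM in KO, so the groups overlapped there. In control 2 of the 44 were called, both higher, where 0.243% of all genes were called higher. Their control median was 0.01, against 0.0020 over all genes. Usp18 differed by 0.07 ± 0.059 in control (edgeR adjusted p = 0.805) and Irf7 by 0.14 ± 0.049 (0.291). The difference between the genotype effects with and without dexamethasone was above 0 for 41 of the 44. Its median was 0.14, against 0.0019 over all genes. For no single gene did this difference pass the test, in the list or outside it.

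Over all genes the test of that difference called 0 of 14427 in edgeR (0%), where 617 had an unadjusted p under 0.05. DESeq2 called 0 too, with 635 at that unadjusted level. Without library WT_control 4 edgeR called 3 genes. The genes of the 130 with the smallest p in this test were Ifi213, at 0.96 ± 0.22, Mrps6, at 0.42 ± 0.10, Slc5a3, at 0.40 ± 0.10, and Gm42031, at 0.41 ± 0.10, each with an edgeR adjusted p of 0.697. For Gm42031 the fall was smaller with dexamethasone than without it, and for Ifi213 and Slc5a3 the rise was larger, in differences that were not called. Mrps6 was at -0.01 ± 0.062 in control. The 6 genes with opposite signs in control were Mrps6, Chil3, Ifi47, Ifit2, Dmxl2 and Egln1, and none was called there.

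**Figure D5:**
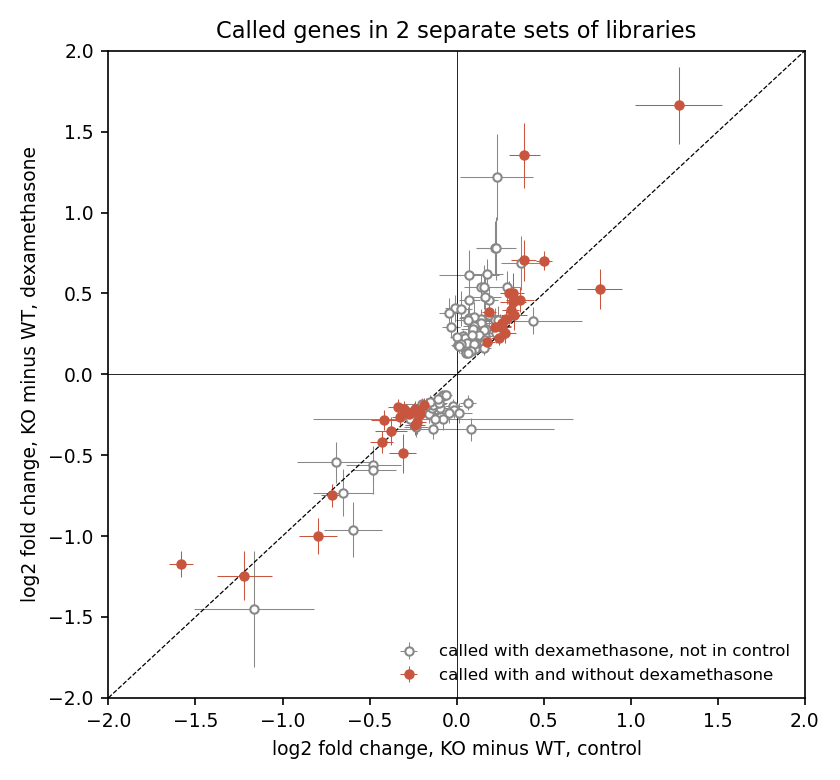
Log2 fold change of KO over WT in control (x axis) against that with dexamethasone (y axis) for 125 of the 130 genes called with dexamethasone, with whiskers for ± SE and a dashed line of equality. Filled points are the genes called in both, and nearly all points have the same sign on both axes. The 5 genes beyond an axis limit of 2 on either axis are not drawn (Capn11, Fmr1nb, Gbp4, Gm16299 and Sox5).

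Of the 130 genes, 11 were called in the same direction in all 4 treatments: Axl, Neo1 and Eya1 higher in KO, and Gm42031, Gm42047, Gdf3, Capn11, Slc15a2, Colec12, Rxra and Fmr1nb lower. With LPS 10.2% of tested genes were called between the genotypes and with both agents 56.4%. In those treatments all KO libraries came from lane 2 and all WT libraries from lane 3, so genotype and lane cannot be told apart there. Slc15a2 was at -1.22 without treatment, -1.24 with dexamethasone, -1.76 with LPS and -1.47 with the pair. Gdf3 was at -0.80, -1.001, -1.18 and -1.15 in the same order, and Axl at 0.50, 0.70, 0.43 and 0.14. Eya1, a phosphatase and transcription coactivator gene, was at 0.28, 0.34, 0.36 and 0.29. Without WT 3 or KO 3 the dexamethasone calls of Neo1 (edgeR adjusted p = 0.0551 and 0.0576) and Rxra (0.0566 and 0.0618) were lost. That of Neo1 was also lost without WT 1, WT 2 or KO 4, that of Rxra without KO 1, and Fmr1nb is given above.

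Markers of other cells were low, and some lists moved with genotype. B cell markers summed to 52.4 to 55.0 CPM in WT and 41.5 to 50.1 CPM in KO, nearly all from Ighm, with Ms4a1 and Pax5 at 0 counts in all 8 libraries. Neutrophil markers summed to 125.6 to 134.6 CPM in WT and 119.8 to 125.0 CPM in KO, mainly from Mmp8, with Ly6g, Mmp9 and Retnlg at 0. Dendritic cell markers summed to 109 to 120 CPM and 119 to 128 CPM, mainly from the interferon-stimulated gene Bst2. Markers of T and NK cells stayed under 1.5 CPM in each library, with Cd3e, Cd3g, Cd8a, Gzma, Ncr1, Nkg7 and Trac at 0. Of the tested markers in these lists (2 of 9 B cell, 5 of 14 neutrophil, 6 of 10 dendritic cell and 2 of 11 T and NK cell genes) 0 were called, against 0.901% of all genes. Their part in the results above was not tested.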

How the data were processed

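Messenger RNA was sequenced in 32 libraries, of which the 8 with dexamethasone alone carry the comparison. The values are unnormalized gene counts of read pairs, as deposited, which the authors made with featureCounts 2.0.0 on exons, without regard to strand, on GENCODE vM32, per the file headers. STAR and the builds GRCm38 and mm10 stand in the submitters' processing notes, and how multi-mapping reads were counted is not given in the sources used here. Printed gene positions are those of the table. Promoters are of GRCm38.p6 and were matched by symbol. Symbols matched 52029 of 56953 identifiers, and the other 4924 held 0.846% of counts.

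In R 4.3.3, genes were kept by filterByExpr of edgeR 4.0.16, scaled by TMM and fitted as 8 group means by quasi-likelihood with 24 residual degrees of freedom. F tests were two-sided, and SE came from the fold change and F. The biological coefficient of variation was 4.36%. A group at 0 counts was set to 3 counts over its 4 libraries, and a ratio resting on 1 to 3 counts has an exact binomial interval. The tests were also checked on simulated data. Replicates within the 2 groups were not duplicates: 12 pairs differed by 2.29 to 2.91 chi-square per degree of freedom.

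Genes were named by rule: Acod1, Nr3c1 and Fkbp5, the 12 largest rises and falls (called, protein-coding, without overlap, at 2 CPM or more in either group), the 10 smallest p, and up to 4 members of each list described. Other names were chosen after their values were seen, and a few genes are not reported here. The comparison and the gene lists, written from textbook knowledge, were chosen with earlier results of these data known. As alternatives the fit was run with DESeq2 1.42.0, RLE size factors, without scaling, without the filter, at a threshold of 0.01, on the compared groups, with a replicate block, on lane 3 and without each library.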

Additional observations from a re-analysis of the deposited data

Results flagged for a closer look

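Among 50 named genes, 99 groups of 4 dexamethasone libraries were checked for a library whose gap to the next was above Dixon's 95% critical value, and 6 had such a library, where chance gives about 1 in 20. Vegfa, the vascular endothelial growth factor, was low in library 4 of either genotype, at 23.6 CPM in WT 4 against 29.1 to 30 CPM in WT 1 to 3, and at 30.3 CPM in KO 4 against 36.2 to 37 CPM in KO 1 to 3. Shc2, a signalling adaptor, was at 1.17 CPM in KO 2 against 2.25 to 2.35 CPM in the other KO libraries. Cebpa, the myeloid transcription factor, was at 211 CPM in WT 1 against 194 to 196 CPM in the other WT libraries. Fkbp5, the glucocorticoid receptor target, was at 873 CPM in KO 2 against 819 to 828 CPM in the other KO libraries. Gla, the lysosomal alpha-galactosidase, was at 176 CPM in WT 2 against 186 CPM in each of the other WT libraries.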

How the results depend on the processing

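With dexamethasone, 130 genes were called, 78 higher and 52 lower. A threshold of 0.01 gave 62 (36 and 26), no filter on low counts 201 (88 lower), DESeq2 190 (87 lower), the compared groups alone 401 (198 and 203) and lane 3 alone 82 (49 and 33). Leaving out each library gave 69 to 119 (43 to 74 higher, 26 to 51 lower). RLE size factors gave 131 and no normalization 135. All 130 kept their direction with RLE size factors, without normalization or filter, with DESeq2, on lane 3 and without each library. In control, with 78 called (35 higher, 43 lower), a threshold of 0.01 gave 38 (17 and 21), no filter 137 (55 and 82), no normalization 28 lower, DESeq2 65 lower, the compared groups alone 121 (55 and 66), lane 3 alone 23 higher, and leaving out each library 47 to 73 (24 to 33 higher, 22 to 40 lower). For the difference between the genotype effects, 0 became 6 without the filter, all 6 higher, 1 on the compared groups alone, also higher, and 0 to 3 without each library, all higher.

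With a replicate block 168 genes were called with dexamethasone. Same-numbered libraries correlated at 0.011 to 0.039 in their deviations from the group means. Of these 0 of 4 were above 0.1, while 3 of 4 correlated best with their own number. The labels give no pairing, and the numbers were not taken as pairs. Some lists did follow the number. In each dexamethasone and control group, cell cycle and cholesterol synthesis sums were highest in library 4 and next in library 2. Whether same-numbered libraries share an origin was not tested.

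Interferon-stimulated rises were 7 at a threshold of 0.01. Cell cycle rises were 0 at that threshold, 6 with DESeq2, 8 with a replicate block and 13 on the compared groups alone. On the compared groups alone 2 glucocorticoid receptor targets rose and 4 fell, and 7 macrophage identity genes fell. At a threshold of 0.01, 0 of those targets were called either way and 1 identity gene fell. Acod1 had group means under 1 CPM, with 77 counts over WT and 42 over KO, and a difference of the size measured was not called. The cause of each change was not tested, except that fewer libraries or genes enter some fits.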
